A study of Mus musculus with 32 samples.

Results

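Kidney is described here by comparing its RNA polymerase II (Pol II) occupancy over genes with that of brain, heart and liver in the mouse. The kidney members are 2 of the 8 columns of one deposited table, frozen kidney and formalin-fixed, paraffin-embedded (FFPE) kidney, and they were taken by column name. The other 6 columns are frozen and FFPE brain, heart and liver. Of 27179 genes in the table, 24490 were kept for testing because they had a log2 value of at least 2 in both kidney columns or in at least 2 of the other columns. Of these, 125 genes were kept through kidney alone, 3171 through the other organs alone, and the rest through both. The filter itself favours a difference in a gene kept through 1 side alone, which holds for Cltrn and Gm53 among the higher genes below and for 12 of the lower genes. Gm12863 lay just inside that limit, at 2.15 and 2.41 in frozen and FFPE kidney, and Olfr1359 just outside it, at 1.97 and 2.59.

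In frozen kidney, a core of frozen tissue was crosslinked with 1% formaldehyde for 30 min. In FFPE kidney, tissue fixed in 10% formalin and embedded in paraffin was freed of it and heated to 95 °C for 20 min to release chromatin. Brain, heart and liver were handled the same 2 ways. All chromatin was sheared by ultrasound in plates and immunoprecipitated with an antibody to the C-terminal domain of Pol II. The labels give no strain, sex, age or genotype for any group, and no treatment other than freezing or fixation. Each organ is a whole-tissue sample, so that fewer cells of a type and less polymerase per cell cannot be told apart. The labels name 2 Pol II libraries per group, whereas the table has 1 column per group, and whether a column holds 1 library or both combined is not given. Each column is called a profile. Nothing in the labels says that the 8 profiles are from different animals. The p-values below therefore rest on differences among these profiles, which may be technical.

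The kidney filters plasma at the glomerulus and then reclaims most of the filtrate along the nephron. The proximal tubule takes back phosphate, glucose, amino acids and filtered protein, the thick ascending limb moves salt without water, and the distal tubule and collecting duct set the final salt, acid and water balance. Each segment does this with its own transporters and channels, under transcription factors of the Pax, Irx and Hox families that also build the organ. Pol II occupancy over a gene body rises with transcription, so the chromatin assay bears on the activity of these genes without RNA.

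Frozen and FFPE kidney held 1720986 and 1458181 reads in genes, and the other profiles 864816 to 2178329, the lowest being FFPE liver and FFPE heart. The median gene had 39 reads in frozen kidney and 28 in FFPE kidney. Mitochondrial genes took 7.77% of the reads in frozen kidney, 19.2% in FFPE kidney, and 7.73% to 25.6% in the other profiles. The deposited values, called levels below, are log2 of depth-scaled reads after 0.5 reads are added to each count, and a log2 fold is a difference of such levels between kidney and the mean of the other organs. A gene without reads stands at -1.94 in frozen kidney, -1.50 in FFPE kidney and -0.67 in FFPE heart, so folds of genes with few reads depend on these floors. The input libraries were not used, so a level may also hold background reads. Per kb of gene, the median level of 971 olfactory receptor genes was 1.81 in kidney and 1.76 in the others. Over all genes tested it was 0.57 and 0.56. How much of a level is background was not tested.

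The kidney label was checked first against 4 markers. Slc34a1, the phosphate cotransporter of the proximal tubule, stood at 8.12 and 7.55 in frozen and FFPE kidney, against a lowest, median and highest of 3.35, 4.33 and 5.04 in the other 6 profiles. Lrp2, which encodes the endocytic receptor megalin, stood at 9.41 and 9.20 in kidney, against 6.28, 6.52 and 6.98 in the others. Pax8, a paired-box factor of the renal epithelium, stood at 6.97 and 6.71 in kidney, against 3.19, 3.96 and 4.18 in the others. Both kidney profiles lay above every other profile for each of these genes, with no overlap. Umod, which encodes uromodulin of the thick ascending limb, stood at 7.19 and 5.99 in kidney, against 3.36, 3.84 and 4.31 in the others, also without overlap. Such separation upward was found for 5.07% of all genes tested. The log2 folds were 3.51 ± 0.28 (SE) for Slc34a1, 2.73 ± 0.22 for Lrp2, 3.06 ± 0.34 for Pax8 and 2.74 ± 0.38 for Umod, with limma adjusted p of 1.7e-07, 1.7e-07, 2.4e-05 and 0.00025. All 4 were also past the threshold against brain, against heart and against liver taken singly. Leaving out frozen kidney, Slc34a1, Lrp2 and Pax8 still passed, whereas Umod had a log2 fold of 1.99 with an adjusted p of 0.25.

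Kidney was higher than the mean of the other organs at 255 genes and lower at 127 (limma, Benjamini-Hochberg adjusted p below 0.05), which is 1.04% and 0.519% of the genes tested. Among the 255 genes, the 5 largest folds belonged to Kap, a kidney androgen-regulated protein of the proximal straight tubule (4.43 ± 0.65, SE), Cltrn, the amino acid transporter chaperone collectrin (3.88 ± 0.73, a gene kept through kidney alone), Pfn3, a short profilin gene that overlaps Slc34a1 (3.56 ± 0.64), Fxyd2, a regulatory subunit of the sodium pump (3.56 ± 0.68), and Slc34a1. For 226 of the 255, both kidney profiles lay above all 6 others, a pattern that 1241 of all genes tested had. For 66 of the 127, both lay below all others, and 771 of all genes tested did so, 3.15%. Taken singly, brain left 530 genes higher in kidney and 513 lower (2.16% and 2.09% of the genes tested), heart 339 and 388 (1.38% and 1.58%), and liver 397 and 633 (1.62% and 2.58%). Of the 255, 68 passed against all 3 organs, 128 against 2, 58 against 1 and 1 against none. The organ with the nearest mean was brain for 84, heart for 88 and liver for 83 of them. The lower genes were spread less evenly: 8 passed against all 3 organs, 51 against 2, 66 against 1 and 2 against none. All 255 had positive folds in both preservations, with medians of 1.70 in frozen and 1.48 in FFPE tissue, and 164 had the larger fold in frozen tissue. Over all genes tested those medians were 0.00 and 0.02. The 255 were called from these same values, in a fit that counts disagreement between preservations as error. Their agreement in sign is therefore no independent check.

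**Figure D1:**
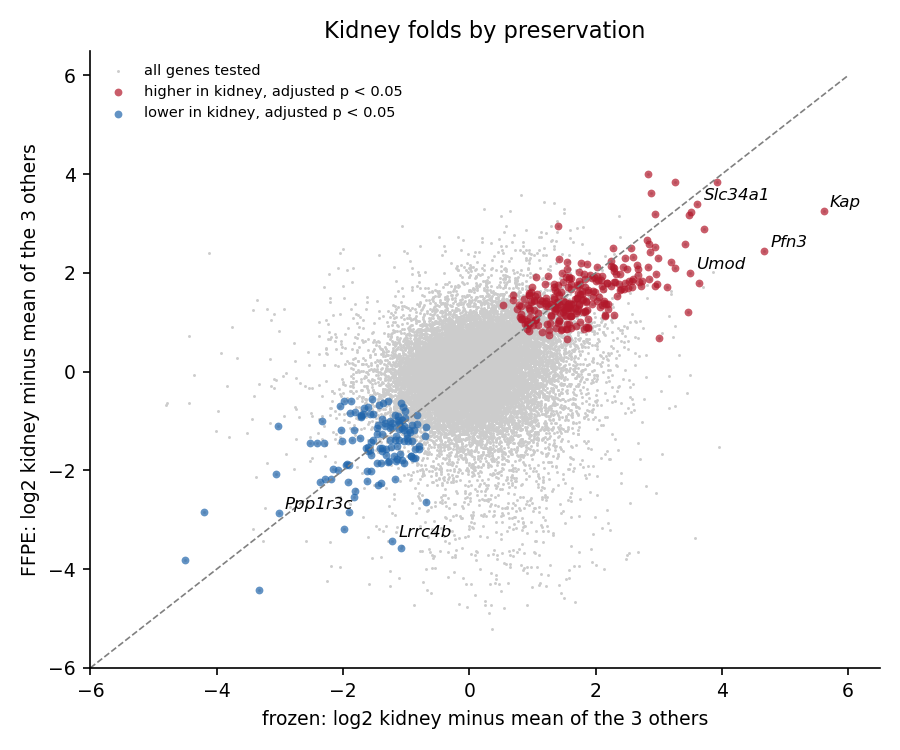
Log2 fold of kidney against the mean of the 3 other organs within FFPE tissue (y axis) and within frozen tissue (x axis), for all 24490 genes tested (grey), the 255 genes higher in kidney (red) and the 127 lower (blue); the dashed line marks equal folds. Kap, Pfn3 and Umod lie below the line, with larger folds in frozen tissue, and the fold of Lrrc4b, a synaptic adhesion gene that was kept through the other organs alone, is -1.22 in frozen and -3.43 in FFPE tissue.

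How many genes passed depended on single profiles. Far fewer genes passed without frozen kidney or without FFPE kidney. In those fits kidney had 1 profile, which is assumed to vary like the others. Why the counts changed was not tested. Without frozen or FFPE liver 508 and 459 genes were higher, with 343 and 451 lower. Without a brain or heart profile, 168 to 187 were higher and 48 to 72 lower. Of the genes called with all profiles, 11 higher and 2 lower passed in all 8 of these fits. The 11 were Slc34a1, Ndrg1, Acsm2, Pax8, Plau, Lrp2, Tfcp2l1, Timp3, Polr3e, Col4a3 and Col4a4, and the 2 were Srrm4 and Ppp1r3c. A fit with no trend in the prior variance called none (2237 genes with an unadjusted p below 0.05), and one with kidney as a single term against all other profiles called 4 higher, Slc34a1, Ndrg1, Pax8 and Lrp2.

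By nephron segment, 30 of 108 listed genes were higher in kidney and 1 was lower, with a median log2 fold of 0.95, against 1.04% higher and a median of -0.01 over all genes tested. For 50 of the 108 both kidney profiles lay above all others, as they did for 5.07% of all genes tested. All lists, here and below, were chosen with earlier results of these data known, so their shares are a description. Counts were highest in the lists for the proximal convoluted tubule, where 8 of 14 rose, and the thick ascending limb, where 8 of 16 rose. They were lowest in the thin limbs, with 0 of 8 by limma's adjusted p (4 at an unadjusted p below 0.05), and in podocytes, with 1 of 12 higher and 1 lower. Of the 30 higher genes, 10 passed without FFPE kidney and 2, Slc34a1 and Lrp2, without frozen kidney, against 24 to 30 without any other profile.

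**Figure D2:**
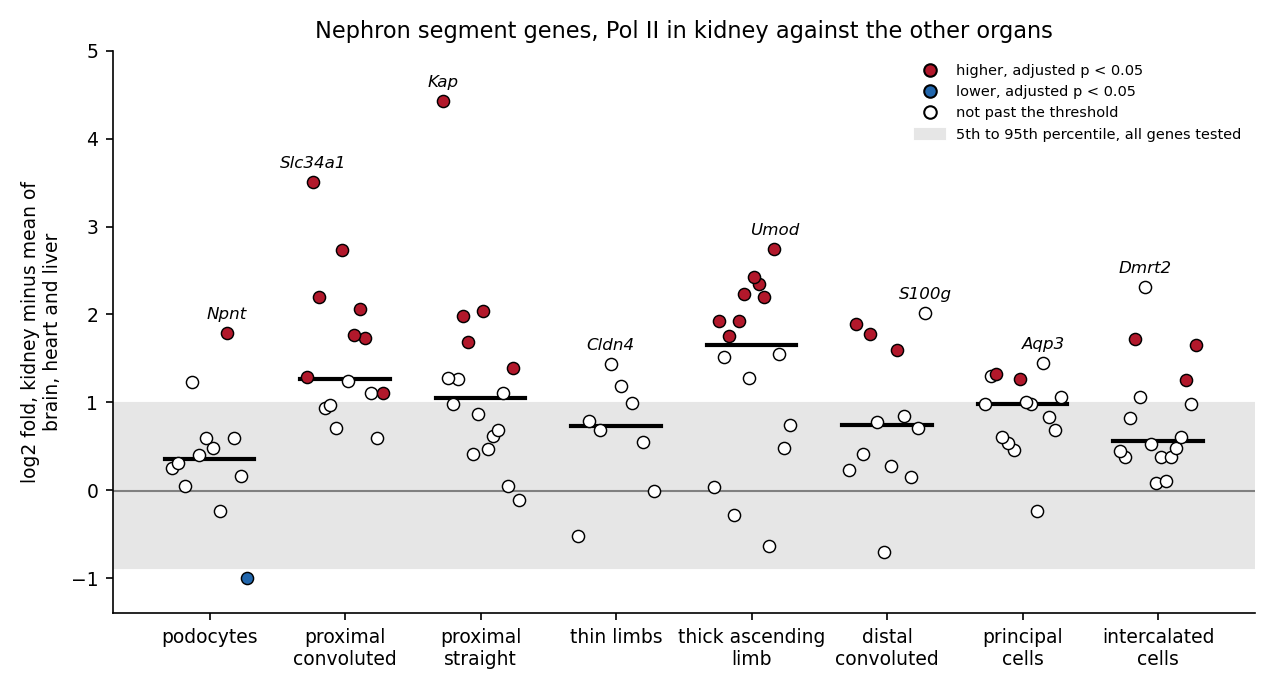
Log2 fold of kidney against the mean of brain, heart and liver (y axis) for genes listed for 8 nephron segments or cell types (x axis, in nephron order). Each point is a gene, filled where the adjusted p is below 0.05 (red higher, blue lower), bars are list medians and the grey band spans the 5th to 95th percentile of all genes tested; the thick ascending limb list has the highest median, 1.65.

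The 8 higher genes of the proximal convoluted tubule serve phosphate, lactate, amino acid, organic anion and bicarbonate transport, creatine synthesis and protein uptake. The median log2 fold of the 14 listed genes was 1.27. Slc5a12, a sodium-coupled lactate transporter, stood at 6.87 and 7.03 in frozen and FFPE kidney, against 3.65, 4.79 and 5.41 (lowest, median, highest) in the others. Slc6a19, the neutral amino acid transporter of the brush border, stood at 6.18 and 5.72 in kidney, against 3.49, 3.91 and 4.25 in the others. For both genes the kidney profiles were the highest of all 8. Their log2 folds were 2.20 ± 0.30 (SE) and 2.07 ± 0.35, with limma adjusted p of 0.00021 and 0.002. Gatm, the first enzyme of creatine synthesis, rose by 1.77 ± 0.32 and Slc22a6, the organic anion transporter of the basolateral membrane, by 1.74 ± 0.32. Of 12 listed genes of endocytosis, Lrp2 and Cubn rose. Cubn, which encodes the megalin partner cubilin, stood at 7.46 and 7.42 in kidney, against 5.81 to 6.28 in the others, and rose by 1.29 ± 0.23. Slc4a4, the basolateral sodium bicarbonate cotransporter, was nearest to brain: it stood at 7.54 and 7.67 in kidney, against 7.22 and 7.08 in frozen and FFPE brain and 5.63 to 6.84 in heart and liver. Its log2 fold was 1.11 ± 0.22, with an adjusted p of 0.0065.

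Several well-known proximal genes did not pass. Slc5a2, the high-capacity glucose transporter of this segment, stood at 5.45 and 5.10 in kidney, against 4.08 to 5.22 in the others, so that the groups overlapped (log2 fold 0.71 ± 0.32, SE, adjusted p = 0.40). Slc2a2, the basolateral glucose transporter that hepatocytes also make, stood at 5.34 and 5.62 in kidney, against 6.72 and 4.72 in frozen and FFPE liver and 3.42 to 4.30 in brain and heart. Cyp27b1, the enzyme that activates vitamin D, stood at 5.32 and 5.13 in kidney, against 3.58 to 5.27 in the others. Slc22a8, Slc34a3 and Slc13a3, transporters of organic anions, phosphate and dicarboxylates, had both kidney profiles above all others, with log2 folds of 1.24, 1.10 and 0.96 and adjusted p of 0.062, 0.17 and 0.15.

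In the list for the proximal straight tubule, 5 of 16 genes rose and the median log2 fold was 1.05. Kap stood at 7.40 and 5.25 in frozen and FFPE kidney, against 0.91, 1.92 and 3.01 in the others. Frozen kidney held 323 reads of it and FFPE kidney 53, against 1 to 8 in each other profile. The kidney profiles were far apart from each other and still above all others, and without frozen kidney the log2 fold was 3.25 with an adjusted p of 0.31. Slc6a18, a glycine and neutral amino acid transporter, rose by 2.04 ± 0.32 and Atp11a, a phospholipid flippase, by 1.39 ± 0.24, each with both kidney profiles above all others. Slc27a2, an acyl-CoA synthetase that imports long fatty acids, was shared with liver: it stood at 7.14 and 6.75 in kidney, against 8.34 and 6.88 in frozen and FFPE liver and 2.79 to 4.10 in brain and heart. Acy3, aminoacylase 3, stood at 6.0 and 5.27 in kidney, against 5.97 and 3.75 in liver and 2.60 to 4.61 in brain and heart. Of the 13 higher genes of both proximal lists, 6 passed without FFPE kidney and 2 without frozen kidney.

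The thick ascending limb list had 8 of 16 genes higher and a median log2 fold of 1.65. Slc12a1, the sodium-potassium-chloride cotransporter blocked by loop diuretics, stood at 7.77 and 6.88 in frozen and FFPE kidney, against 4.35, 4.89 and 5.35 in the others. Kcnj1, the potassium channel ROMK that recycles potassium for it, stood at 6.38 and 6.24 in kidney, against 3.11, 4.23 and 4.72 in the others. Bsnd, which encodes the chloride channel subunit barttin, stood at 6.10 and 5.25 in kidney, against 2.32, 3.48 and 3.76 in the others. In all 3 genes the kidney profiles were above every other. The log2 folds were 2.42 ± 0.31, 2.20 ± 0.34 and 2.34 ± 0.43 (SE), with limma adjusted p of 8.9e-05, 0.00084 and 0.0036. Egf, the growth factor precursor made in the distal nephron, rose by 2.23 ± 0.27, Cldn10, a cation-selective tight junction protein, by 1.92 ± 0.44, and Casr, the calcium-sensing receptor, by 1.92 ± 0.38. Egf, Slc12a1 and Umod passed without FFPE kidney, and none of the 8 passed without frozen kidney. Cldn16, Tmem207 and Ptger3 had both kidney profiles above all others but adjusted p of 0.34, 0.20 and 0.23. In this list the frozen fold of Umod was 3.49 and the FFPE fold 1.99, and of Slc12a1 3.14 and 1.71.

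**Figure D3:**
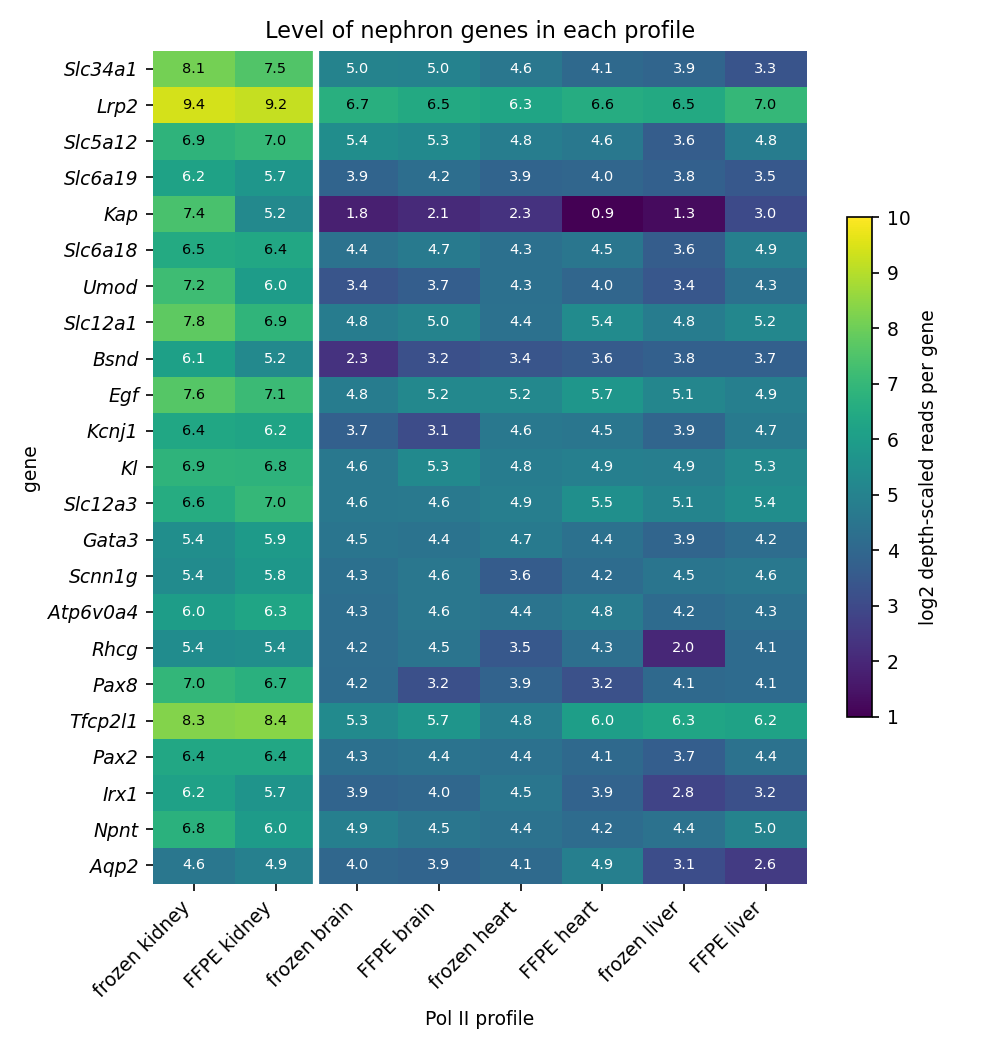
Level (log2 of depth-scaled reads per gene, colour and printed value) of 23 kidney genes (down the page, in nephron order, then transcription factors, then Npnt and Aqp2) in each of the 8 Pol II profiles (columns, kidney left of the white line). Slc34a1 to Tfcp2l1 read brighter in both kidney columns, whereas Aqp2 in kidney, at 4.57 and 4.91, overlaps FFPE heart at 4.88.

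Further along the nephron fewer listed genes passed. Of the 12 genes of the distal convoluted tubule 3 rose, with a list median of 0.74. Slc12a3, the thiazide-sensitive sodium chloride cotransporter, stood at 6.58 and 7.0 in frozen and FFPE kidney, against 4.62, 4.96 and 5.48 in the others, and its log2 fold was 1.78 ± 0.26 (SE, limma adjusted p = 0.0005). Kl, which encodes the FGF23 coreceptor Klotho, stood at 6.87 and 6.80 in kidney, against 4.62, 4.87 and 5.27 in the others, and rose by 1.89 ± 0.27. Tmem52b, a membrane protein enriched in distal nephron, rose by 1.60 ± 0.30. Kidney and the other organs did not overlap for any of the 3, of which Kl alone passed without FFPE kidney and none passed without frozen kidney. S100g, the small calbindin of calcium-transporting cells, had a log2 fold of 2.02 ± 0.90 and did not pass (adjusted p = 0.39).

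In the collecting duct, 2 of 14 principal cell genes and 3 of 16 intercalated cell genes rose, with list medians of 0.98 and 0.56. Gata3, a zinc finger factor of the duct, stood at 5.45 and 5.90 in frozen and FFPE kidney, against 3.92, 4.40 and 4.69 in the others. Scnn1g, the gamma subunit of the epithelial sodium channel, stood at 5.36 and 5.78 in kidney, against 3.63, 4.40 and 4.59 in the others. Both genes were highest in the 2 kidney profiles, with log2 folds of 1.32 ± 0.32 and 1.27 ± 0.32 (SE) and limma adjusted p of 0.037 and 0.049. Neither passed when any single kidney, brain or heart profile was left out. The alpha and beta subunits, Scnn1a and Scnn1b, had folds of 1.06 and 1.29 and did not pass. Aqp2, the vasopressin-regulated water channel, had a fold of 0.98 ± 0.41 and an adjusted p of 0.34.

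Among intercalated cell genes, Atp6v0a4, the kidney form of a proton pump subunit, stood at 6.01 and 6.28 in frozen and FFPE kidney, against 4.16, 4.38 and 4.75 in the others, without overlap. Its log2 fold was 1.73 ± 0.30 (SE, limma adjusted p = 0.0027). Rhcg, an ammonia channel, rose by 1.65 ± 0.42, and Insrr, a receptor that senses alkaline pH, by 1.25 ± 0.30, both with kidney above all others. None of the 3 passed when either kidney profile was left out, and Atp6v0a4 alone passed without each brain and heart profile. Of the 18 proton pump subunits listed, Atp6v0a4 was the 1 that rose, and the list median was 0.28. Foxi1, the master factor of these cells, and Dmrt2 had both kidney profiles above all others, with adjusted p of 0.41 and 0.078.

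Of the 12 podocyte genes listed, with a median log2 fold of 0.35, 1 passed upward. Npnt, which encodes the matrix protein nephronectin, stood at 6.76 and 5.96 in frozen and FFPE kidney, against 4.19, 4.46 and 5.03 in the others, and was the 1 podocyte gene that rose (1.79 ± 0.32, SE, limma adjusted p = 0.0029). It did not pass when either kidney profile was left out. Nphs1, which encodes nephrin of the slit diaphragm, stood at 5.12 and 4.98 in kidney, against 4.46 to 5.60 in the others.

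The lists by function begin with transport. Their counts stand against 1.04% higher and 0.519% lower over all genes tested. Of 17 listed genes of sodium, phosphate and bicarbonate transport 7 rose. Slc9a3, the sodium-hydrogen exchanger of the brush border, stood at 6.18 and 5.99 in frozen and FFPE kidney, against 3.30, 3.99 and 4.82 in the others. Pdzk1, the scaffold that holds transporters in the brush border, stood at 6.26 and 5.92 in kidney, against 3.18, 4.45 and 4.89 in the others. Fxyd2 stood at 6.41 and 6.11 in kidney, against 2.85 to 4.53 in the other profiles with reads, and had 0 reads in FFPE heart. Kidney did not overlap the others in any of these genes. Atp1b1, the beta subunit of the sodium pump, rose by 0.98 ± 0.22 (SE) and overlapped brain, at 8.01 and 7.07 in kidney, against 7.29 and 6.69 in frozen and FFPE brain. Of these 7 genes, Slc34a1 was the 1 that passed without FFPE kidney, and the 1 that passed without frozen kidney.

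Among 20 amino acid and peptide transport genes 4 rose, Cltrn among them, and 1 fell. Cltrn was kept for testing through kidney alone. Cltrn, the partner that brings Slc6a19 to the cell surface, stood at 5.16 and 4.81 in frozen and FFPE kidney, which is 68 and 39 reads. In the other profiles it had 0 to 8 reads. Slc15a2, the high-affinity peptide transporter, rose by 1.28 ± 0.32 (SE, limma adjusted p = 0.045). Slc38a3, a glutamine transporter, fell by 1.17, standing at 5.12 and 4.84 in kidney, against 8.14 and 6.43 in frozen and FFPE liver, 6.40 and 6.22 in heart, and 4.97 and 4.77 in brain. Kidney thus overlapped brain and lay below heart and liver. Slc6a18 passed without FFPE kidney and no other of these 5 did, none passed without frozen kidney, and Slc38a3 passed only when a liver profile was left out.

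Of 22 organic ion transporters 6 rose, with a list median of 1.22. Slco1a6, an organic anion transporter, stood at 6.27 and 5.72 in frozen and FFPE kidney, against 3.21, 3.80 and 4.43 in the others (2.18 ± 0.36, SE, limma adjusted p = 0.0017). Slc22a12, the urate transporter, stood at 6.64 and 6.08 in kidney, but brain was close, at 6.36 and 5.64, and heart and liver ranged from 3.38 to 4.46. Slc17a1, Slc22a5 and Slc47a1, which move phosphate and organic anions, carnitine, and organic cations, rose by 1.76, 1.35 and 1.29. Liver was near for Slc17a1, at 5.01 and 5.33 in frozen and FFPE liver, against 6.24 and 5.35 in kidney. It was also near for Slc47a1, at 5.65 and 5.41, against 5.96 and 6.17 in kidney. Neither of these genes passed against liver taken singly (limma adjusted p = 0.56 and 0.57). None of the 6 passed when either kidney profile was left out, and 5 to 6 passed without any one other. In the list for glucose, lactate and inositol transport, 3 of 12 rose. Slc5a3, the sodium inositol transporter that helps medullary cells to hold osmolytes, stood at 9.0 and 8.27 in kidney, against 6.28, 7.16 and 7.28 in the others, and rose by 1.62 ± 0.22. It was the 1 gene of 10 on the list for the osmotic response of the medulla that rose. Across all 396 genes named Slc or Slco, a family looked at after values were seen, 19 rose and 4 fell, against 1.04% and 0.519% of all genes tested, with a median fold of 0.09.

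Chloride and potassium channel genes formed another group, with 6 of 13 higher and a median of 1.19. Kcnj16, a subunit of the basolateral potassium channel, stood at 6.66 and 6.37 in frozen and FFPE kidney, against 2.67, 4.07 and 4.69 in the others (2.67 ± 0.38, SE, limma adjusted p = 0.00029). Kcnj15, its relative, stood at 7.01 and 7.09 in kidney, against 3.14, 5.06 and 5.33 in the others. Kcnk5, an alkaline-sensitive potassium channel, stood at 7.45 and 6.87 in kidney, with liver nearest at 6.58 and 6.32 and the lowest value, 3.43, in frozen brain. The 2 kidney profiles were above all others in each of the 3 genes. These 3 passed without FFPE kidney, and none of the 6 passed without frozen kidney.

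Tight junction and epithelial genes rose in 7 of 26 cases. Cldn8 and Cldn2, claudins of the distal nephron and of the leaky proximal tubule, stood at 5.05 and 5.45, and at 5.97 and 5.13, in frozen and FFPE kidney, against highest values of 3.52 and 4.75 in the others. Cdh16, the kidney-specific cadherin, stood at 6.88 and 6.46 in kidney, against 4.35, 4.59 and 4.83 in the others (2.07 ± 0.29, SE, limma adjusted p = 0.00029). Pkhd1, which encodes fibrocystin of the primary cilium and is mutated in recessive polycystic kidney disease, stood at 7.97 and 8.06 in kidney, against 5.59, 6.19 and 6.62 in the others (1.81 ± 0.22, adjusted p = 7.1e-05). The kidney profiles were the highest of the 8 in all 4 genes. Spint1, a protease inhibitor of epithelia, Cdh1, which encodes E-cadherin, and Prom1, which encodes the stem-cell antigen prominin, rose by 2.13, 1.57 and 1.19. Cldn8, Cldn2 and Cdh1 did not pass against liver taken singly (limma adjusted p = 0.16, 0.079 and 0.39). Prom1 did not pass against brain (limma adjusted p = 0.21), whereas Cdh16 and Spint1 passed against each organ. Without FFPE kidney Cdh16 passed, and without frozen kidney Pkhd1 passed.

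Hormone-related genes rose in 4 of 18 cases, including Kap and Kl. Vdr, the vitamin D receptor, stood at 6.98 and 6.94 in frozen and FFPE kidney, against 3.22, 4.78 and 5.16 in the others (2.46 ± 0.32, SE, limma adjusted p = 0.00015). Pth1r, the parathyroid hormone receptor, stood at 6.62 and 6.50 in kidney, against 4.39, 4.73 and 5.59 in the others (1.66 ± 0.30, adjusted p = 0.0036). Without FFPE kidney Kap, Kl and Vdr passed, and without frozen kidney none of the 4 did. The genes of the 2 hormones best known from kidney did not pass, and both had few reads. Ren1, which encodes renin, stood at 3.84 and 3.15 in kidney, against 1.65 to 3.71 in the others, and Epo, which encodes erythropoietin, at 1.52 and 0.83, against 1.23 to 3.97. Frozen and FFPE kidney held 27 and 12 reads of Ren1, and 5 and 2 of Epo. The log2 folds were 0.47 ± 0.55 and -1.31 ± 0.77 (limma adjusted p = 0.85 and 0.59), too imprecise to show whether kidney differed.

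Metabolic genes were higher in part. Miox, the inositol oxygenase of the proximal tubule, stood at 5.53 and 5.60 in frozen and FFPE kidney, against a highest value of 3.81 in the others, and had 0 reads in FFPE liver. It did not pass without frozen heart or when either kidney profile was left out. Its log2 fold was 3.25 ± 0.67 (SE, limma adjusted p = 0.011), yet it passed against liver and not against brain or heart (adjusted p = 0.18 and 0.06). Among 21 listed genes of renal metabolism, 2 rose and 1 fell, with a median of 0.23. Acsm2, a medium-chain acyl-CoA synthetase, stood at 8.32 and 7.99 in kidney, against 3.58, 5.05 and 5.61 in the others, and rose by 3.32 ± 0.28 (adjusted p = 2.2e-07). Cyp4b1, a fatty acid hydroxylase, rose by 2.65 ± 0.31. In both, kidney was clearly apart from the rest. Of 22 tested genes of fatty acid and peroxisomal metabolism 3 rose and 1 fell.

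Gluconeogenesis takes place in kidney and liver. Pck1, the rate-limiting enzyme, stood at 9.46 and 7.88 in frozen and FFPE kidney, against 11.78 and 8.88 in liver, 4.34 and 3.81 in brain and 4.31 and 4.46 in heart. It was higher in kidney than in brain by 4.59 ± 0.43 (SE) and than in heart by 4.29 ± 0.43, and lower than in liver, with a log2 fold of -1.66 ± 0.43 (limma adjusted p = 2.4e-06, 2.8e-06 and 0.028). Gk, glycerol kinase, rose by 1.72 ± 0.30 against the mean of the others, with liver nearest at 6.93 and 5.33 and kidney at 7.25 and 7.05. Of 14 listed genes of gluconeogenesis and ammonia formation 2 rose and 1, Slc38a3, fell. Among 15 enzymes of the brush border 2 rose: Mep1a, a subunit of the protease meprin, by 2.37 ± 0.38, and Ggt1, the gamma-glutamyl transferase of glutathione breakdown, by 1.64 ± 0.37. Pck1 and Mep1a passed without FFPE kidney, and none of these 5 genes passed without frozen kidney.

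Transcription factors of the kidney rose in 12 of 30 listed cases, with a median fold of 1.11. Tfcp2l1, a factor of the distal nephron and collecting duct, stood at 8.32 and 8.39 in frozen and FFPE kidney, against 4.80, 5.86 and 6.28 in the others (2.64 ± 0.26, SE, limma adjusted p = 2.3e-06). Pax2, a paired-box factor of kidney development, stood at 6.41 and 6.40 in kidney, against 3.71, 4.33 and 4.42 in the others (2.20 ± 0.32, adjusted p = 0.00041). Irx1, an Iroquois factor of mid-nephron patterning, stood at 6.15 and 5.66 in kidney, against 2.85, 3.88 and 4.53 in the others (2.19 ± 0.37, adjusted p = 0.002). In each, the 2 kidney profiles lay well above the rest. Tfap2b and Elf3, factors of distal and of epithelial cells, rose by 1.76 and 1.66, and Sim1 by 1.13. Taken singly, Tfap2b passed against each organ. Elf3 did not pass against liver and Sim1 did not pass against brain (limma adjusted p = 0.24 and 0.41).

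Some of these factors were shared with liver. Hnf4a, the nuclear receptor of proximal tubule and hepatocyte, stood at 7.89 and 7.22 in frozen and FFPE kidney, against 9.21 and 7.40 in liver and 4.31 to 4.69 in brain and heart. It rose by 2.99 ± 0.37 (SE) against brain and by 3.06 ± 0.37 against heart (limma adjusted p = 3.7e-05 and 2.5e-05), and its difference from liver, -0.75 ± 0.37, did not pass (adjusted p = 0.34). Sall1, a zinc finger factor of the nephron progenitor, rose by 1.04 ± 0.25 against the mean of the others and was 0.28 ± 0.31 from liver. Of the 12 higher factors, Pax8 and Tfcp2l1 passed when either kidney profile was left out, and 8 to 9 passed without a brain or heart profile.

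Hox genes, which specify position along the body axis and stay active in the kidney, were high as a family against the mean of the other organs. They were looked at after values were seen. Of 39 Hox genes, 12 rose, the median fold was 1.29, and all 39 folds were above 0, whereas 28.9% of all genes tested were above 0 in both preservations and 38 of these 39 were. Both kidney profiles lay above all others for 27. Over all genes tested, 1.04% rose and 5.07% lay above all others. The Hoxb cluster had 6 of 10 higher and a median of 1.68, Hoxa had 4 of 11 and 1.40, Hoxd 2 of 9 and 1.06, and Hoxc 0 of 9 and 1.11, with 6 of the 9 at an unadjusted p below 0.05 (limma). Neighbours overlap in the annotation, and among the 27 that overlap no other gene 8 rose.

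Hoxb9 (chr11:96271330-96276595) stood at 5.99 and 6.20 in frozen and FFPE kidney, against 3.14, 3.69 and 4.83 in the others (2.28 ± 0.39, SE, limma adjusted p = 0.0022). Hoxb6 (chr11:96292814-96301569) stood at 5.46 and 5.25 in kidney, against 2.33, 2.94 and 4.15 in the others (2.23 ± 0.45, adjusted p = 0.0083). Hoxa10 (chr6:52231197-52240854) stood at 6.80 and 6.42 in kidney, against 4.32, 4.88 and 5.63 in the others (1.71 ± 0.28, adjusted p = 0.0016). Kidney did not overlap the others in any of the 3. Heart was the nearest organ for Hoxa10, and the difference from heart did not pass (limma adjusted p = 0.08). The predicted gene Gm53 (chr11:96251660-96264484), which lies 680 bases from Mir196a-1, stood at 4.33 and 4.48 in kidney, against -0.67 to 1.98 in the others. It was kept through kidney alone, so the filter itself favoured a difference and the levels are given as a description. By organ, the median fold of the 39 genes was 1.5 against brain, 1.02 against heart and 1.54 against liver. Taken singly, 14 of the 39 passed as higher against brain, 3 against heart (Hoxb3, Hoxb6 and Hoxb9) and 14 against liver. Of all genes tested, 2.16%, 1.38% and 1.62% did so. None of the 12 passed when either kidney profile was left out, and 8 to 12 passed without any one other.

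**Figure D4:**
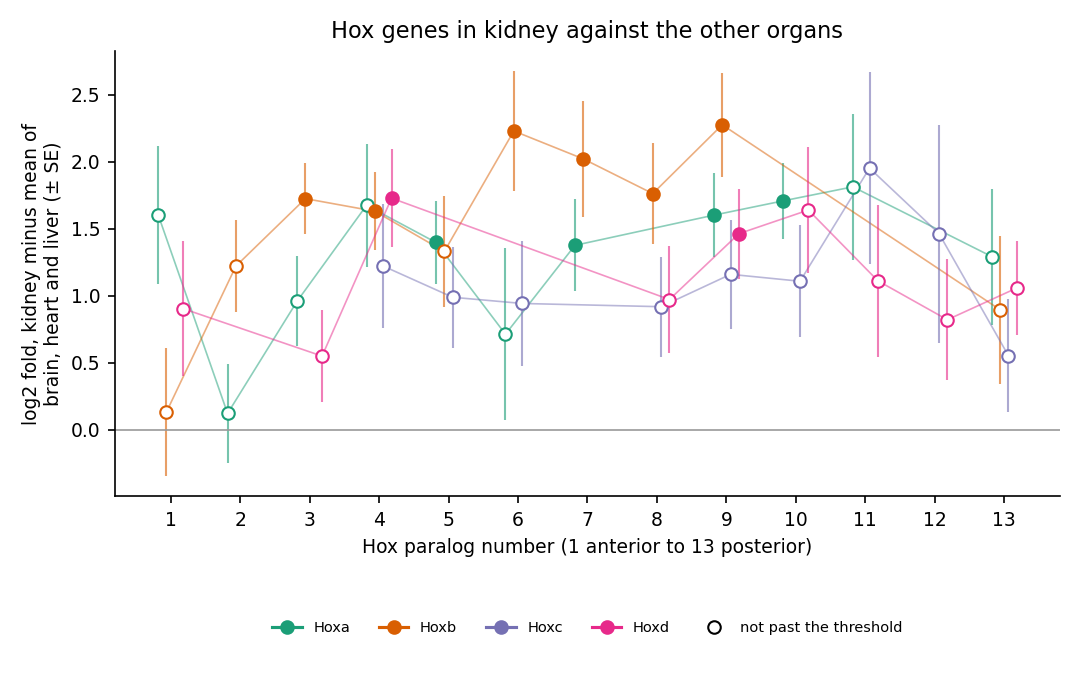
Log2 fold of kidney against the mean of brain, heart and liver (y axis, bars are SE) for 39 Hox genes by paralog number (x axis) and cluster (colour); filled points have an adjusted p below 0.05. All points lie above 0, Hoxb6 to Hoxb9 are filled, and the paralogs numbered 1, 2, 11, 12 and 13 hold no filled point.

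Genes of other cell types in the kidney were also read, as a description. Of 12 endothelial, 12 mural and stromal, 12 immune, 10 adrenal, 8 fat and 3 tested erythroid genes, none rose or fell (limma). At an unadjusted p below 0.05, 2 endothelial genes were higher, and 1 mural gene was higher and 2 lower. The 5 larger lists had medians of 0.38, 0.33, -0.02, 0.27 and -0.20. Summed over each list, endothelial genes came to 762 to 813 depth-scaled reads in kidney and 396 to 1338 in the others, and immune genes to 230 to 312 in kidney and 232 to 289 in the others. Adrenal genes, whose gland lies against the kidney, came to 154 to 213 in kidney and 127 to 217 in the others. No listed gene of these groups was at 0 reads in both kidney profiles. Of all genes in the table, 2.97% were at 0 reads in frozen kidney and 4.92% in FFPE kidney. Having reads therefore does not show that such cells were present. Of the 12 endothelial, 12 immune and 10 adrenal genes, kidney lay above all other profiles for 0, 0 and 1, against 5.07% of all genes tested. The part of such cells in the results was not tested.

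Of 18 genes listed for tubule injury, 3 rose and 1 fell. Ndrg1, a hypoxia-inducible gene also active in healthy distal nephron, stood at 8.90 and 8.73 in frozen and FFPE kidney, against 5.02, 5.44 and 5.96 in the others, and had the lowest adjusted p of all genes (3.37 ± 0.23, SE, limma adjusted p = 1.4e-08). Plau, which encodes urokinase and is made by healthy tubule, stood at 8.18 and 6.78 in kidney, against 3.86, 4.44 and 5.39 in the others (3.00 ± 0.29, adjusted p = 2.2e-06). Spp1, which encodes osteopontin, rose by 1.99 ± 0.41. In all 3, kidney lay above all others. The classical injury markers Havcr1 and Lcn2, which encode KIM-1 and NGAL, stood at 3.42 and 3.86, and at 2.15 and 2.90, in frozen and FFPE kidney, against 0.69 to 4.88 and 1.54 to 3.52 in the others. Clu, which encodes clusterin, fell by 1.45, with its highest value, 7.99, in frozen liver. Spp1 and Clu did not pass when either kidney profile was left out.

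Some genes were alike in kidney and liver and higher than in the other organs. By a difference from liver of at most 0.5 and a pass against both brain and heart, 29 genes met this description. Keg1 (chr19:12695790-12719902), an acyltransferase-like gene of kidney, stood at 6.92 and 5.58 in frozen and FFPE kidney, against 7.48 and 4.98 in liver and 2.14 to 3.07 in brain and heart. Glyat (chr19:12633308-12651737), the glycine acyltransferase that conjugates benzoate, lies beside it and stood at 5.73 and 5.30 in kidney, against 6.42 and 4.93 in liver and 1.23 to 3.42 in brain and heart. Kidney and liver overlapped in both genes, and brain and heart lay below. The differences from liver were 0.02 ± 0.49 and -0.16 ± 0.65 (SE), intervals wide enough to hold sizeable differences either way. Rbm47, an RNA-binding protein of endoderm-derived and renal epithelia, stood at 7.85 and 8.02 in kidney, against 7.68 and 7.24 in liver and 4.45 to 5.44 in brain and heart. Anks4b, a brush border protein, Sult1d1, a sulfotransferase, and Rnf186, a ubiquitin ligase, had kidney minus liver differences of -0.39, 0.48 and -0.12.

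**Figure D5:**
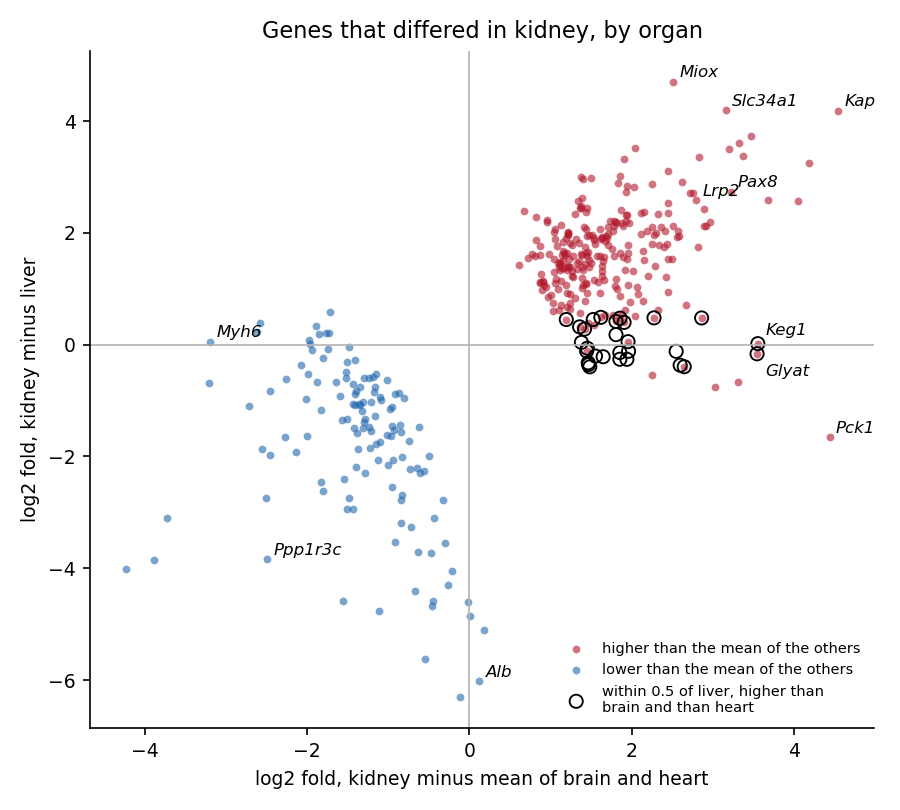
Log2 fold of kidney minus liver (y axis) against kidney minus the mean of brain and heart (x axis) for the 255 genes higher in kidney (red) and the 127 lower (blue); circles mark the 29 genes within 0.5 of liver that passed against brain and against heart, of which 14 are among the 255 and the others are drawn as circles alone. Pck1 lies at the far right and below 0, at -1.66 against liver, and Alb and Myh6 mark genes with 1 high organ, liver for Alb and heart for Myh6.

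Genes lower in kidney included signature genes of the other organs. Of 20 hepatocyte genes 6 fell, of 15 cardiomyocyte genes 6 fell, and of 16 neuron genes 1 fell, with list medians of -1.36, -1.15 and -0.51. Over all genes tested 0.519% fell. Against liver taken singly, all 20 hepatocyte genes passed as lower in kidney, against 2.58% of all genes tested. Alb, which encodes albumin, stood at 4.29 and 3.79 in frozen and FFPE kidney, against 11.41 and 8.71 in liver and 3.38 to 4.37 in brain and heart. Myh6, the heavy chain of cardiac myosin, stood at 5.61 and 4.98 in kidney, against 11.90 and 10.77 in heart and 4.94 to 5.90 in brain and liver. In both, kidney was among the low profiles and 1 organ was high. For 3 such genes the sign depended on that organ: without both liver profiles the folds of Alb and of Cps1, a urea cycle enzyme, were 0.12 and 0.0035, and without both heart profiles that of Ttn, which encodes titin, was 0.062. Without FFPE kidney 0 of the 6 hepatocyte and 2 of the 6 cardiomyocyte genes passed, without frozen kidney 0 and 1, and without FFPE heart 2 and 3; without FFPE kidney or frozen kidney Snap25, the 1 neuron gene, did not pass.

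A smaller set was low in kidney against every profile. Ppp1r3c, a subunit that targets phosphatase 1 to glycogen, stood at 3.49 and 3.26 in frozen and FFPE kidney, against 4.55 and 4.82 in brain, 7.04 and 7.05 in heart and 7.93 and 6.50 in liver (-2.94 ± 0.30, SE, limma adjusted p = 4.9e-06). Its relative Ppp1r3b, chosen after values were seen, stood at 5.34 and 4.88 in kidney, against 8.72 and 7.71 in liver and 4.35 to 6.65 in brain and heart. St3gal5, the GM3 ganglioside synthase, stood at 4.40 and 4.39 in kidney, against 5.63, 6.10 and 7.41 in the others (-1.90 ± 0.27, adjusted p = 0.00025). Srrm4, a splicing factor best known from neurons, stood at 5.32 and 4.95 in kidney, against 6.36, 7.33 and 7.70 in the others (-2.07 ± 0.25, adjusted p = 4.8e-05), and it overlaps Srrm4os. Kidney lay below all 6 profiles for Ppp1r3c, St3gal5 and Srrm4, and without frozen kidney St3gal5 did not pass. Snap25, a synaptic vesicle fusion protein, stood at 3.19 and 3.03 in kidney, against 3.58 to 6.88 in the others. The open reading frame 1700045I11Rik had 0 reads in both kidney profiles and 4 to 14 in each of the others, and Olfr1047, an olfactory receptor gene, had 0 and 1 reads in kidney against 5 to 19. Both were kept through the other organs alone and are given as a description.

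Of 55 replication-dependent histone genes tested, 7 fell, none rose (limma; 0 higher at an unadjusted p below 0.05) and the others did not pass, with a median of -0.70. Of all genes tested 0.519% fell. H4c11 and H2bc15, 2 of the 7, were kept through the other organs alone. H4c4 stood at 4.91 and 3.36 in frozen and FFPE kidney, against 5.16, 6.02 and 7.91 in the others. These genes are short, near-identical copies, so that reads could be split between them and single genes are uncertain. The 15 immediate early genes looked at had a median of -0.64, and 1, Fos, fell. Fos stood at 5.30 and 5.37 in kidney, against 5.58, 6.65 and 7.23 in the others. Both families were examined after values were seen, and the histone and Fos calls ended without several single profiles: 0 of the 7 histone genes passed without frozen kidney, 2 to 3 without FFPE kidney or a brain or heart profile, and Fos passed without FFPE brain or either liver profile.

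Genes outside the lists are given next, chosen after their values were seen. Col4a3 (chr1:82586921-82722059) and Col4a4 (chr1:82448419-82587034), chains of the glomerular basement membrane that share a promoter region, stood at 7.81 and 8.04, and at 7.50 and 7.80, in frozen and FFPE kidney, against highest values of 6.34 and 6.12 in the others. Their log2 folds were 1.93 ± 0.22 and 1.90 ± 0.23 (SE), with limma adjusted p of 3.3e-05 and 4.9e-05. Timp3, an inhibitor of metalloproteases, stood at 8.91 and 8.45 in kidney, against 4.66, 5.99 and 7.32 in the others, and lies inside Syn3, whose fold was 1.24. Polr3e, a subunit of RNA polymerase III, stood at 7.90 and 7.77 in kidney, against 5.65, 5.83 and 6.11 in the others (1.97 ± 0.23, adjusted p = 3.3e-05). Kidney lay above all others in each. Glis2, Glis3 and Bicc1, genes linked to cystic kidney disease, rose by 1.38, 1.73 and 1.5. Car2 and Car12, carbonic anhydrases, rose by 1.43 and 1.51, and Gpx3, the plasma glutathione peroxidase made in kidney, by 2.24. Adra2b, an adrenergic receptor, rose by 2.29, and Ppargc1a, a coactivator of mitochondrial genes, by 1.30. Heart was near for Gpx3 and Ppargc1a, with kidney minus heart differences of 0.87 and 0.62 (limma adjusted p = 0.26 and 0.32). Bicc1 also did not pass against heart, Car12 against brain, or Car2 against brain or liver. Glis2, Glis3 and Adra2b passed against each organ taken singly. Of these 8, none passed without frozen kidney, and Glis2, Gpx3 and Adra2b alone passed without FFPE kidney.

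Some high genes overlap or adjoin another high gene. Reads in a shared stretch cannot be assigned to 1 gene, since the counting strand is not known. Pfn3 (chr13:55414688-55415232), the profilin gene named above, stood at 6.41 and 4.77 in frozen and FFPE kidney, against 0.90 to 2.80 in the others, and overlaps a few bases at the end of Slc34a1 (chr13:55399622-55414695). Prss8, the protease prostasin, which activates the epithelial sodium channel, rose by 2.72 ± 0.37 (SE) and overlaps Kat8, whose fold was 1.15. The gene 1700028J19Rik rose by 3.30 ± 0.63 and lies 307 bases from Klk1, the tissue kallikrein, which rose by 2.74 ± 0.62. Of the 255 higher genes, 62 overlapped another gene, and of all genes tested 22.6% did. In Pfn3, Prss8, 1700028J19Rik and Klk1 the kidney profiles exceeded every other profile. Pfn3 and Prss8 did not pass without frozen kidney, Klk1 and 1700028J19Rik did not pass when either kidney profile was left out, and Klk1 did not without either brain profile.

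Matches to 3 short motifs on both strands are given for promoters of the higher genes, in windows from 250 bases before to 50 bases after the start (RefSeq, GRCm38.p6). CAAAGTCCA, part of the site read by HNF4 factors, was in 3 of the 189 higher genes that had such a window (Osbpl6, Pdzk1 and Rab11fip3), in 3 of 92 lower genes and in 0.549% of all 17844 tested genes that had one. TCAAGGTCA, read by estrogen-related receptors, was in 0 of 189 and in 0.409% of all, and GGGCGG, read by Sp1, in 57.1% of higher, 58.7% of lower and 50.2% of all genes. A match is a description of letters and shows no binding.

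The window of Pdzk1, the brush border scaffold described above, is given because it carries the match of CAAAGTCCA, in capitals. It is written 5′ to 3′ on the gene's strand, at chr3:96829815-96830114 (plus strand). RefSeq's promoter table gives 2 starts for this gene, both inside the span of the gene's annotation, and the window is that of the first. The window of the other start holds no match.
Pdzk1: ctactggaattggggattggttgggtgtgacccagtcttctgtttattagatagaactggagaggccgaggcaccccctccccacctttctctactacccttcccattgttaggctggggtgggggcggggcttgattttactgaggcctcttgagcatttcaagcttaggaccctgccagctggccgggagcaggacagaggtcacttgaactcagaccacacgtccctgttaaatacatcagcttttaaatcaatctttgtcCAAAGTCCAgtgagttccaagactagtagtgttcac
The match begins 14 bases after that start. Both kidney profiles lay above every other profile for this gene.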

How the data were processed

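Pol II was profiled by ChIP-seq in frozen and FFPE kidney, brain, heart and liver. The labels list 32 libraries, 16 of Pol II (2 per group) and 16 inputs, and the inputs were not used here. The submitters' processing notes name Bowtie2, mm10, featureCounts and limma; tool versions and counting strand were not given in the sources used here. As deposited, the authors gave 1 table of log2 values per gene with 8 columns, per the file headers 1 per organ and preservation. Every value of every column gives back a whole number of reads, within a relative tolerance of 1e-06, as log2 of reads plus 0.5 over a scaled total, with scaling factors of 0.862 to 1.12. No per-sample column was left unmapped (0 columns).

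The kept genes were fitted with limma 3.58.1 in R 4.3.3, with organ and preservation as terms, a mean-variance trend, 3 residual degrees of freedom and 19.1 prior ones. Contrasts were kidney minus the mean of brain, heart and liver, and kidney minus each. P-values were adjusted by Benjamini-Hochberg over the 24490 genes tested, with a threshold of 0.05. The code of the fit was run on simulated reads in which organs differed only at genes changed in kidney. These reads lacked the other organ differences and any preservation effect, so they do not check the error estimate for the real data. Python 3.11.15 and matplotlib 3.10.9 made the summaries and figures. Genes named are the 4 markers, the 20 highest and 20 lowest called genes without overlap, up to 5 called genes and 3 others per list, and the 8 highest genes alike in kidney and liver. Others are said to be chosen after their values were seen or are further members of a list. The comparison and all lists were chosen with earlier results of these data known. Positions and promoters are RefSeq's for GRCm38.p6, and 25271 genes (93.0%) had a position. The 1275 genes without a symbol were tested and not named. Alternatives covered the filter, scaling, weighting, prior, blocking and each profile left out. A few genes and 2 further motifs are not reported here.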

Additional observations from a re-analysis of the deposited data

Results flagged for a closer look

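Of the 262 genes examined by name, 2 had kidney beyond the other organs' profiles of the same preservation in opposite directions in frozen and in FFPE tissue. Ace, which encodes the angiotensin-converting enzyme of brush border and endothelium, had a log2 fold of 0.43 in frozen tissue and -0.41 in FFPE tissue. Cldn12, which encodes a claudin, had -0.16 in frozen tissue and 0.30 in FFPE tissue. Whether the preservations differ was not tested, with 1 kidney profile in each. Of all genes tested 1961 (8.01%) showed such opposite directions.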

How the results depend on the processing

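Against 255 genes higher in kidney and 127 lower, leaving out each profile in turn gave 13 to 508 higher and 6 to 451 lower. Quantile normalization gave 501 and 210, voom weights on the recovered reads 554 and 224, no preservation block 171 and 50, and kidney as 1 term against all other profiles 4 and 0 (1089 at an unadjusted p below 0.05). Without a trend in the prior 0 and 0 passed (2237 unadjusted, smallest adjusted p 0.088). Without FFPE heart and FFPE kidney 98 and 48 passed, without both brain profiles 214 and 210, and without both liver profiles 631 and 634. With voom weights, kidney against brain gave 806 higher and 840 lower, against heart 684 lower, and against liver 611 and 1248. Direction turned for Alb (0.12) and Cps1 (0.0035) without both liver profiles and for Ttn (0.062) without both heart profiles. The causes were not tested, and the fits that leave some profiles out also had fewer profiles. Other filters and scalings gave 221 to 351 higher and 99 to 122 lower. No paired analysis was possible because the columns carry no replicate number. Depth limits genes with few reads: 5 of the 127 lower genes had under 10 reads over both kidney profiles.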
